A study of Prunus persica with 12 samples.

Results

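The genes ppa006857m and ppa006839m, taken here as the peach endopolygalacturonase copies of the melting-flesh locus, are described in ripening fruit flesh. They were picked by identifier, with their levels in these libraries already known, and are 2 of 27864 gene identifiers measured. The deposited tables pair no identifier with a product, and 0 of 27864 matched the reference gene table, so the assignment to endopolygalacturonase was not checked here. The RNA-seq data cover the edible fruit flesh (mesocarp) of Prunus persica in 12 libraries, with 2 libraries in each of 6 groups. The cultivar 'Zhong Hua Shou Tao' (ZH2) was labelled hard melting with slight aroma and had a brix, a measure of soluble solids, of 18. 'Jin Xiu Huang Tao' (JX2) and 'Yu Lu' (YL2) were labelled soft melting with strong aroma, with a brix of 12 in JX2 and 14.9 in YL2. ZH2, JX2 and YL2 were sampled at the stage numbered 2. 'Hu Jing Mi Lu', labelled soft melting, was sampled at 3 ripening stages: HJ1 with slight aroma and no brix given, HJ2 with strong aroma and a brix of 12.1, and HJ3 with strong aroma and a brix of 12.5. The labels do not say how ripe fruit of the same stage number were, nor whether paired libraries stem from different trees or fruit, so the spread between them may be technical. Hard melting was the label of ZH2 alone, so texture and cultivar cannot be told apart. Tissue markers were not checked, since no identifier could be tied to a product.

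Endopolygalacturonase cuts the homogalacturonan backbone of pectin, the polysaccharide that glues plant cells together, at internal sites once methyl groups have been removed. In peach the genes at this locus are known for the late, rapid loss of firmness that separates melting from non-melting flesh, and for whether the flesh comes away from the stone. Their transcripts are known to build up late in ripening, when the fruit makes ethylene.

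Depth ran from 1205507 reads in HJ1 replicate 2 to 3222252 reads in HJ2 replicate 2. Levels are in RPKM, which scales the reads of a gene to its length and to the sequencing depth. The steps of these values allow the whole reads behind each level to be worked back. The length used for ppa006857m was 1641 bp and that for ppa006839m was 2043 bp. Copies of a gene can share reads where their sequences match. How alike these copies are was not checked, and how reads that match both were counted is not given in the sources used here, so the split between them is uncertain. In bulk flesh, fewer cells that express a gene and less RNA per cell cannot be told apart.

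The copy ppa006857m was abundant in JX2, YL2, HJ2 and HJ3, all labelled soft melting. It was nearly absent from the hard-melting ZH2 and from HJ1, which is also labelled soft melting. In ZH2 it had 0.243 and 1.05 RPKM, on 1 and 5 reads. In JX2 it had 189 and 214 RPKM, on 528 and 535 reads. In YL2 it had 818 and 839 RPKM, on 3305 and 3511 reads. These 3 cultivars, all sampled at stage number 2, did not overlap with each other. Along the stages of 'Hu Jing Mi Lu' it had 0.628 and 0 RPKM in HJ1, on 2 reads and 0 reads. In HJ2 it had 70.2 and 70.9 RPKM, on 281 and 375 reads. In HJ3 it had 577 and 540 RPKM, on 1718 and 1303 reads. Every stage lay above the one before it, with no overlap between libraries. The share of all genes that separate in these ways between cultivars or stages was not counted, so this describes ppa006857m alone.

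From high to low, the group means of ppa006857m were 829 ± 14.4 RPKM in YL2, 559 ± 26.1 in HJ3, 202 ± 17.3 in JX2, 70.5 ± 0.542 in HJ2, 0.649 ± 0.574 in ZH2 and 0.314 ± 0.444 in HJ1 (SD, n = 2 each). Neighbours in this order did not overlap, except ZH2 and HJ1, whose libraries overlapped. The share of all genes that do so was not counted here either. With 0 reads in HJ1 replicate 2, a level above 0 remained possible there. In that library 3 reads are worth 1.52 RPKM, and the exact 95% Poisson interval reached 1.86 RPKM. By RPKM the gene ranked 84 and 85 of 27864 in the YL2 libraries and 117 and 129 in the HJ3 libraries. In HJ2 it ranked 1566 and 1525, and in ZH2 14313 and 12227. Its share of the RPKM sum was 0.114% in YL2 and 0.0775% in HJ3.

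**Figure D1:**
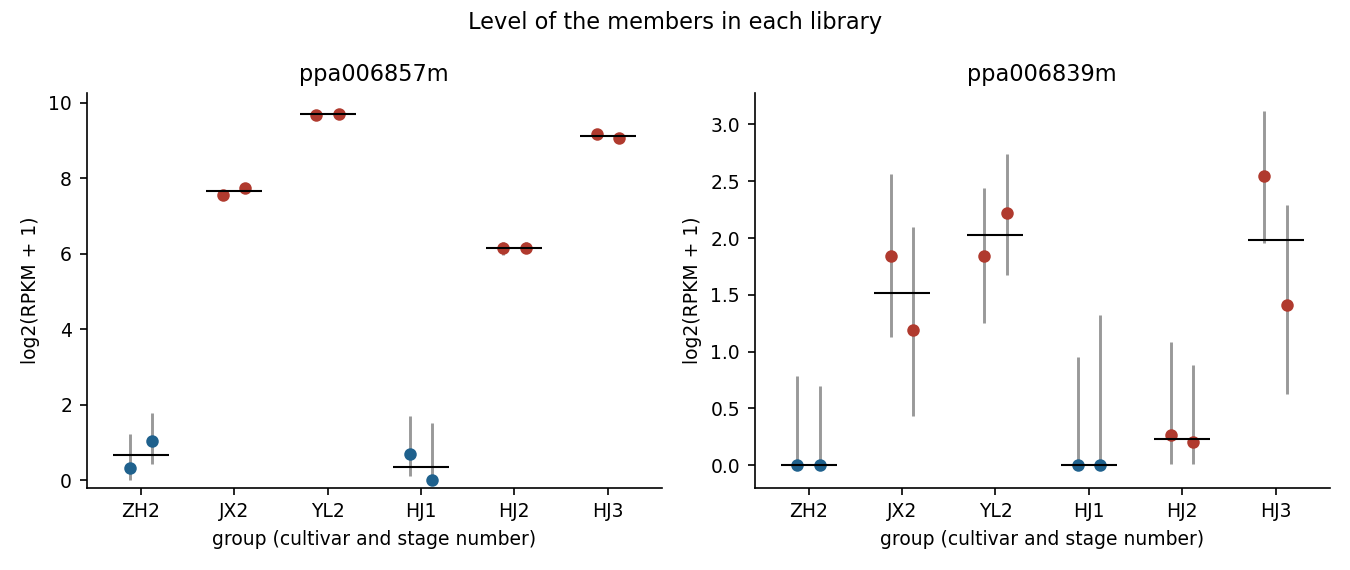
Level of ppa006857m (left) and ppa006839m (right) in log2(RPKM + 1) for each library of the 6 groups; points are libraries, grey lines exact 95% Poisson intervals of their reads, black lines group means of the points, and blue marks the groups labelled slight aroma (ZH2, HJ1). The 4 blue points on the left lie at or below 1.05 RPKM, while the 8 red ones start at 70.2 RPKM; on the right the vertical scale is shorter, and no point exceeds 4.86 RPKM.

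The second copy, ppa006839m, was close to the limit of what these libraries can show. Its reads in all 12 libraries came to 70, against 11564 reads for ppa006857m. In ZH2 it had 0 reads in both libraries, where 3 reads are worth 0.586 and 0.508 RPKM. The exact 95% Poisson intervals reached 0.721 and 0.625 RPKM. In JX2 it had 2.59 and 1.28 RPKM, on 9 and 4 reads, and in YL2 it had 2.59 and 3.65 RPKM, on 13 and 19 reads. JX2 and YL2 thus overlapped. Along the stages it had 0 reads in both HJ1 libraries, where 3 reads are worth 0.756 and 1.22 RPKM. Their 95% Poisson intervals reached 0.930 and 1.50 RPKM. In HJ2 it had 0.201 and 0.152 RPKM, on 1 read in each library. In HJ3 it had 4.86 and 1.66 RPKM, on 18 and 5 reads. The HJ3 libraries lay above those of HJ2 but differed from each other by more than the libraries of YL2 or of JX2 did. The 3 groups with most of its reads, HJ3, YL2 and JX2, overlapped and have no clear order. The groups ZH2, HJ1 and HJ2 each had 2 reads or fewer in all and were not distinguishable at this depth.

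Across the 12 libraries, log2(RPKM + 1) of ppa006839m had a Pearson r of 0.86 and a Spearman rho of 0.90 with that of ppa006857m. This describes 6 groups of 2 libraries, in which the copies share depth and may share reads. The groups where ppa006839m had more than 2 reads were also the 3 groups where ppa006857m was highest.

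Where both copies together had at least 10 reads in each library, ppa006857m made up nearly all of their summed RPKM. It took 99.03% ± 0.533 in JX2, 99.63% ± 0.0833 in YL2, 99.75% ± 0.0504 in HJ2 and 99.43% ± 0.373 in HJ3 (SD, n = 2 each). As a share of reads, ppa006839m ran from 0.266% in HJ2 replicate 2 (exact 95% binomial interval 0.00673% to 1.47%) to 1.68% in JX2 replicate 1 (0.769% to 3.16%). The remaining JX2 library stood at 0.742% (0.203% to 1.89%), so the intervals within JX2 overlapped. The reads of ppa006839m behind these shares came to 13 in JX2, 32 in YL2, 2 in HJ2 and 23 in HJ3. The shares come from the levels with which the genes were chosen and are a description, with no test. The summed RPKM of both copies followed ppa006857m, with 0.243 and 1.05 in ZH2, 192 and 215 in JX2, 821 and 843 in YL2, 0.628 and 0 in HJ1, 70.4 and 71.1 in HJ2, and 582 and 542 in HJ3. The copies differ in length, so this sum depends slightly on how reads were split between them. The summed reads were 1 and 5 in ZH2, 537 and 539 in JX2, and 3318 and 3530 in YL2. Along the stages they were 2 and 0 in HJ1, 282 and 376 in HJ2, and 1736 and 1308 in HJ3. They do not depend on the split if each shared read was counted once, which is not known.

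**Figure D2:**
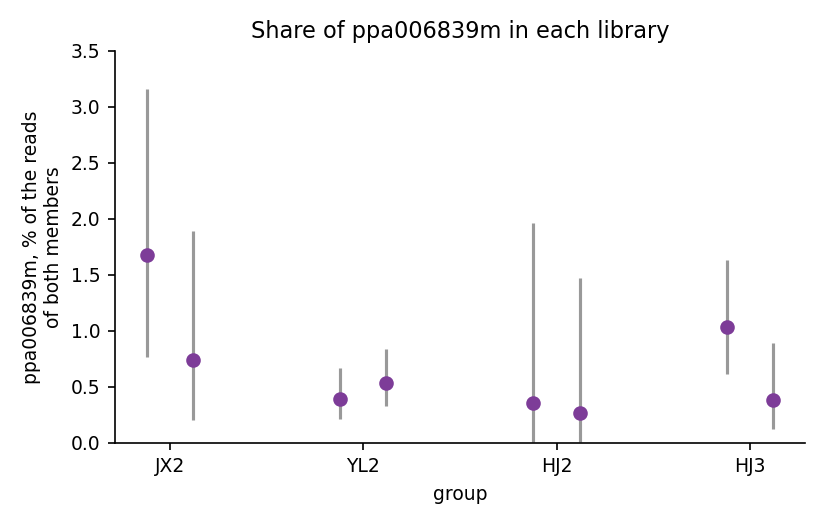
Reads of ppa006839m as a percentage of the reads of both copies in the 8 libraries of the 4 groups with at least 10 such reads in each library; points are libraries and grey lines exact 95% binomial intervals. The points run from 0.266% to 1.68%, and the intervals of both libraries overlap in every group.

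The stages of 'Hu Jing Mi Lu' ask which genes change over ripening; firmness was not analysed here. Corrected for depth, ppa006857m had 182 times as many reads in HJ2 as in HJ1 (95% counting interval 50.3 to 1509), a ratio that rests on 2 HJ1 reads. It was 112 without HJ1 replicate 2, and without HJ1 replicate 1 it was at least 46.5-fold higher. From stage 2 to stage 3 the ratio was 7.94 (7.30 to 8.65), on 3021 reads in HJ3 and 656 in HJ2. Between the outer stages, HJ3 had 1448 times the reads of HJ1 (400 to 11959), or 893 without HJ1 replicate 2 and at least 368-fold more without HJ1 replicate 1. Each increase was far larger than the spread within groups. Because the gene was chosen with these levels known, they are given as a description, with no test.

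On the log2(RPKM + 1) scale, where a low gene's change is understated, the difference of ppa006857m was 5.81 ± 0.245 for HJ2 minus HJ1, 2.97 ± 0.245 for HJ3 minus HJ2 and 8.78 ± 0.245 for HJ3 minus HJ1 (SE from limma, n = 2 per group). Among 15217 genes with at least 1 RPKM in 2 or more libraries, these ranked 14, 203 and 3 from the highest. A log2 difference of at least 1 upwards was reached by 1 of the 2 copies in HJ2 minus HJ1 (5.57% of all genes), by 2 of 2 in HJ3 minus HJ2 (7.91%) and by 2 of 2 in HJ3 minus HJ1 (7.26%). Both copies were chosen with these levels known and passed the filter only through groups where they were high. These ranks and counts therefore describe the choice of genes and support nothing.

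For ppa006839m the HJ2 and HJ1 libraries held too few reads for a ratio, at 2 reads in HJ2 and 0 in HJ1. HJ3 had 19.8 times the depth-corrected reads of HJ2 (4.90 to 174), on 23 and 2 reads. Without HJ3 replicate 1 this ratio was 9.63. Against HJ1, HJ3 was at least 2.68-fold higher, a bound that moved to 4.31 without HJ1 replicate 2 and to 1.37 without HJ3 replicate 1. It leaves out the counting error of HJ3. The 5 reads of HJ3 replicate 2 had a 95% Poisson interval from 0.541 RPKM, below the 1.22 RPKM of 3 reads in HJ1 replicate 2. Its log2 differences were 0.23 ± 0.384 for HJ2 minus HJ1, 1.75 ± 0.384 for HJ3 minus HJ2 and 1.98 ± 0.384 for HJ3 minus HJ1 (SE, n = 2 per group). The first of these is smaller than its SE, which pools the spread of all 6 groups. In a fit of HJ2 and HJ1 alone the SE was 0.098, and the difference still rests on 2 reads.

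The cultivars at stage number 2 ask how flesh of different texture and aroma differs. For ppa006857m the hard-melting ZH2 was lowest, and the soft-melting HJ2, JX2 and YL2 followed in rising order. Depth-corrected reads of ppa006857m in ZH2 were 104-fold lower than in HJ2 (95% counting interval 47.6 to 285), 1223-fold lower than in YL2 (562 to 3334) and 296-fold lower than in JX2 (136 to 810). The 6 ZH2 reads set these values. Without ZH2 replicate 1 they were 66.9, 786 and 191, and without ZH2 replicate 2, which leaves 1 read, they were 290, 3408 and 826. JX2 had 2.85 times the reads of HJ2 (2.58 to 3.14) and YL2 had 11.7 times (10.8 to 12.7). Soft-melting fruit of the same stage number therefore spanned a range wider than 10-fold.

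In log2(RPKM + 1), ZH2 minus HJ2 was -5.48, ZH2 minus YL2 was -9.02 and ZH2 minus JX2 was -6.98, each ± 0.245 (SE from limma, n = 2 per group). The difference from YL2 ranked 1 from the lowest of 15217 genes, that from JX2 ranked 4 and that from HJ2 ranked 11. A log2 difference of at least 1 downwards was found for 1 of the 2 copies in ZH2 minus HJ2 (12.8% of all genes), for 2 of 2 in ZH2 minus YL2 (7.07%) and for 2 of 2 in ZH2 minus JX2 (6.66%). Upwards, it was found for 2 of 2 in YL2 minus HJ2 (7.98%), where ppa006857m stood at 3.54 ± 0.245 and ranked 63 from the highest. It was also found for 2 of 2 in JX2 minus HJ2 (4.15%), where ppa006857m stood at 1.50 ± 0.245 and ranked 290. There ppa006839m stood at 1.28, and without JX2 replicate 1 at 0.96, which leaves 1 of 2. The counts of ppa006839m depend on the scale: with a pseudocount of 0.1 it passed 1 in all 8 comparisons, and with a pseudocount of 10 in 0 of 8. The comparisons with HJ2 share its libraries, and the comparisons of ZH2 share the ZH2 libraries. As with the stages, these ranks and counts describe the choice of genes and support nothing.

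For ppa006839m, ZH2 was at least 5.32-fold lower than YL2 and at least 3.31-fold lower than JX2, with 0 reads in ZH2 set against 3 reads in its shallowest library. Without JX2 replicate 1 the bound against JX2 was 2.19, on 4 reads. Their 95% Poisson interval began at 0.350 RPKM, below the 0.586 RPKM of 3 reads in ZH2 replicate 1. YL2 had 18.1 times the depth-corrected reads of HJ2 (4.61 to 156), and JX2 had 11.4 times (2.58 to 104), or 7.43 without JX2 replicate 1. Both ratios rest on 2 HJ2 reads. No fold was given for ZH2 against HJ2, with 0 reads in ZH2 and 2 in HJ2. The log2 differences were -2.03 for ZH2 minus YL2, -1.52 for ZH2 minus JX2, -0.23 for ZH2 minus HJ2, 1.80 for YL2 minus HJ2 and 1.28 for JX2 minus HJ2, each ± 0.384 (SE, n = 2 per group).

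**Figure D3:**
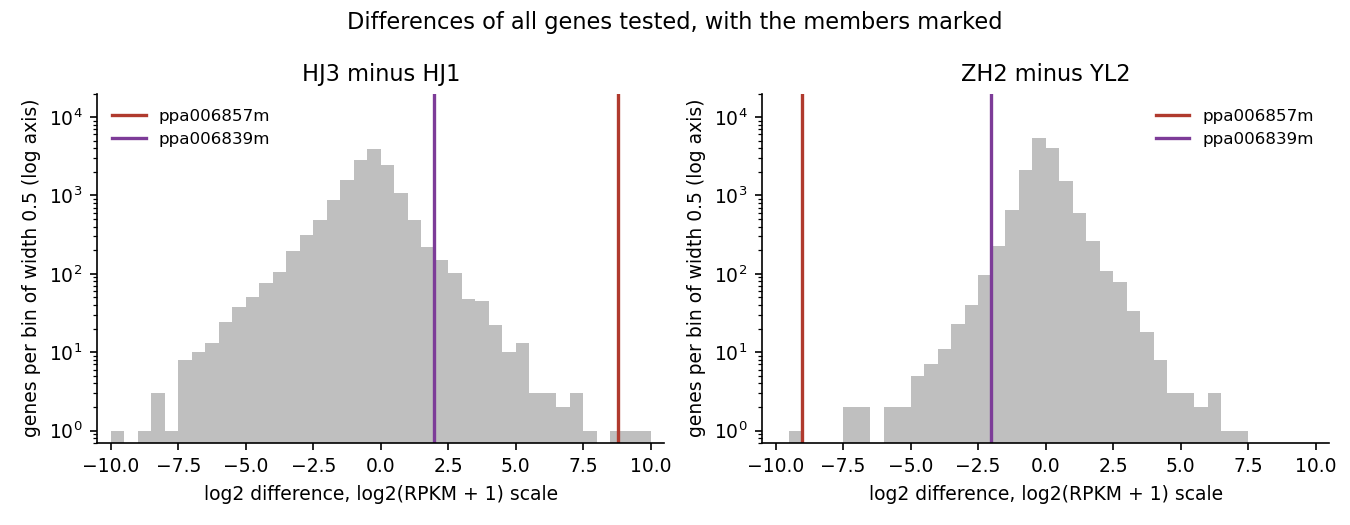
Log2 differences, in log2(RPKM + 1), of the 15217 genes in HJ3 minus HJ1 (left) and ZH2 minus YL2 (right); bars count genes in bins of width 0.5 on a log axis, and vertical lines mark the copies. The line of ppa006857m stands at 8.78 on the left and at -9.02 on the right, at the edge of both distributions, while ppa006839m stands at 1.98 and -2.03. Both copies were chosen with their levels known.

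Set against the labels, the level of ppa006857m went with the label of aroma in all 12 libraries and with that of texture in 10. High and low were told apart at the highest level of HJ1 and ZH2, the slight-aroma groups. Their match to aroma, and the mismatch of HJ1 to texture, were thus fixed by that cut. The 8 libraries labelled strong aroma held at least 70.2 RPKM, and the 4 labelled slight aroma held at most 1.05 RPKM. The HJ1 libraries carry the soft-melting label of their cultivar, yet lay as low as the hard-melting ZH2. A clean separation of the same 8 and 4 libraries in this direction was shown by 169 of the 15217 genes (1.11%). In log2(RPKM + 1), the gap between the lowest of the HJ2, HJ3, YL2 and JX2 means and the higher of the HJ1 and ZH2 means was 5.48 for ppa006857m, rank 1 of 15217, and 0.23 for ppa006839m, rank 234. This split follows the aroma labels and is also that of the high and low groups of ppa006857m, which was chosen with its levels known. The tally, the separation and the rank therefore describe the choice of this gene and support nothing. Brix gave another order: it was 18 in ZH2, where the gene was lowest among groups with a brix, and 14.9 in YL2, where it was highest.

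Patterns most like that of ppa006857m were sought among 6825 other genes with a mean of at least 10 RPKM, by Pearson r of log2(RPKM + 1) over the 12 libraries. The median r was -0.15, and 3 genes reached 0.95. The closest were ppa009320m (r = 0.961, rho = 0.993) and ppa012064m (r = 0.961, rho = 0.979). The gene ppa009320m had a mean of 5.77 ± 2.94 RPKM in ZH2, 33.6 ± 0.00354 in JX2, 66.4 ± 1.64 in YL2, 3.59 ± 4.10 in HJ1, 22.0 ± 2.42 in HJ2 and 58.9 ± 6.47 in HJ3 (errors are SD, n = 2 each). It thus kept the order of ppa006857m over the groups on a narrower scale. The gene ppa012064m had a mean of 20.1 ± 0.433 RPKM in ZH2, 45.1 ± 1.07 in JX2, 95.6 ± 4.20 in YL2, 15.2 ± 3.83 in HJ1, 35.8 ± 7.08 in HJ2 and 68.1 ± 1.20 in HJ3 (errors are SD, n = 2 each). Farthest from it was ppa013149m (r = -0.979, rho = -0.930), with a mean of 59.3 ± 1.03 RPKM in ZH2, 20.4 ± 0.977 in JX2, 15.8 ± 0.736 in YL2, 77.1 ± 0.410 in HJ1, 25.6 ± 1.97 in HJ2 and 16.8 ± 5.96 in HJ3 (errors are SD, n = 2 each). For ppa006839m, 0 genes reached an r of 0.95 and 4 reached 0.9, and the gene farthest from it was ppa011583m (r = -0.962). Its sparse reads leave these values weak. The 12 points are 6 pairs of libraries, and no product is known for these identifiers.

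**Figure D4:**
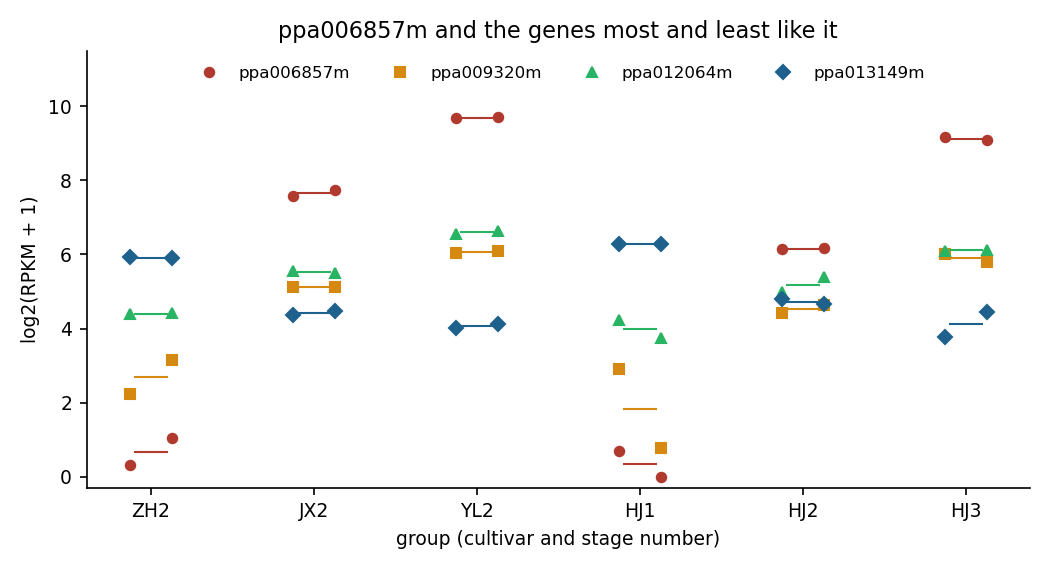
Level in log2(RPKM + 1) of ppa006857m, of the genes most like it (ppa009320m, ppa012064m) and of the gene least like it (ppa013149m) in each library of the 6 groups; points are libraries and short lines group means. The similar genes are lowest in HJ1 and ZH2 and highest in YL2, and ppa013149m is highest in HJ1 at 77.1 RPKM.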

How the data were processed

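Fruit mesocarp RNA was sequenced in 12 libraries, grouped by the cultivar, stage and replicate in the sample titles. Each library has its own deposited table of RPKM, per the file headers. The submitters' processing notes list DESeq 1.10.1, HTSeq 0.5.3, TopHat 1.4.0 and Bowtie 0.12.8 without their roles. Genome build, annotation, strand and the treatment of multi-mapped reads are not given in the sources used. Depths and lengths were worked back from the RPKM steps, which came out whole within 0.01 of a read for all 17316 genes with reads in 2 or more libraries (Python 3.11.15, numpy 2.4.6, pandas 2.3.3, scipy 1.17.1). Intervals and floors (3 reads) cover counting error only. The reads of replicate libraries differed beyond counting error (chi-square per degree of freedom 1.75 to 2.29).

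Differences and their SE come from limma 3.58.1 (R 4.3.3), run on log2(RPKM + 1). The fit took all 12 libraries and 15217 genes with at least 1 RPKM in 2 libraries. The SE measures only the spread between these libraries, which may be technical. It pools that spread over all 6 groups, so all comparisons of a gene carry the same SE. Ratios are of depth-corrected reads summed over the libraries of a group, with exact 95% binomial intervals. A ratio against 0 reads is a bound against 3 reads in the shallowest library of that group. It sets the mean level of the other group against that floor and leaves out the counting error of that mean. The planned permutation test of the share of the copies is not reported, since its values are the levels with which the genes were chosen.

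The genes and the comparisons were chosen with earlier results of these data known. Named genes are the copies, the 2 most like ppa006857m by r and the least like each copy; the 2 most like ppa006839m are given by count alone, since identifiers without products are kept few. Gene lists by product were not used, as 0 of 27864 identifiers matched the 26412 genes of the reference table. Alternatives were the pseudocount, the filter, rescaling by median ratio, depth without the 10 most abundant genes, limma voom on reads, a replicate block, fits of the groups compared alone and leaving out each library.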

Additional observations from a re-analysis of the deposited data

How the results depend on the processing

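None of the 16 log2 differences changed direction in 192 values under the alternatives, and 50 of these moved by more than the spread between replicates. Leaving out the filter, fitting the groups compared alone and the replicate block all leave the group means as they are. The differences could therefore not move (8.78 for ppa006857m in HJ3 minus HJ1 with the block, as without it). With 2 libraries per group, leaving out 1 can never shift a difference beyond that spread. That none moved under these settings was thus fixed in advance and says nothing about stability. Without single libraries, ppa006857m ran from 8.42 to 9.13 for HJ3 minus HJ1 and from -9.38 to -8.66 for ZH2 minus YL2. With a pseudocount of 0.1, ppa006857m moved to 8.03 for HJ2 minus HJ1, 11.02 for HJ3 minus HJ1, -6.81 for ZH2 minus HJ2, -10.36 for ZH2 minus YL2 and -8.32 for ZH2 minus JX2. The copy ppa006839m moved to 1.46 for HJ2 minus HJ1, 3.43 for HJ3 minus HJ2, 4.89 for HJ3 minus HJ1, 3.53 for YL2 minus HJ2, 2.81 for JX2 minus HJ2, -1.46 for ZH2 minus HJ2, -4.99 for ZH2 minus YL2 and -4.27 for ZH2 minus JX2. With a pseudocount of 10, ppa006857m moved to 2.97 for HJ2 minus HJ1, 2.82 for HJ3 minus HJ2, 5.78 for HJ3 minus HJ1, 3.38 for YL2 minus HJ2, -2.92 for ZH2 minus HJ2, -6.30 for ZH2 minus YL2 and -4.31 for ZH2 minus JX2. The copy ppa006839m moved to 0.025 for HJ2 minus HJ1, 0.37 for HJ3 minus HJ2, 0.40 for HJ3 minus HJ1, 0.36 for YL2 minus HJ2, 0.23 for JX2 minus HJ2, -0.025 for ZH2 minus HJ2, -0.39 for ZH2 minus YL2 and -0.25 for ZH2 minus JX2. With limma voom on reads, whose scale has no pseudocount in RPKM, ppa006857m moved to 7.26 for HJ2 minus HJ1, 10.24 for HJ3 minus HJ1, -6.74 for ZH2 minus HJ2, -10.30 for ZH2 minus YL2 and -8.25 for ZH2 minus JX2. The copy ppa006839m moved to 0.70 for HJ2 minus HJ1, 3.61 for HJ3 minus HJ2, 4.31 for HJ3 minus HJ1, 3.61 for YL2 minus HJ2, 2.95 for JX2 minus HJ2, -1.52 for ZH2 minus HJ2, -5.13 for ZH2 minus YL2 and -4.47 for ZH2 minus JX2. After rescaling by median ratio, ppa006857m moved to 3.17 for HJ3 minus HJ2, 3.71 for YL2 minus HJ2 and 1.66 for JX2 minus HJ2. When the 10 most abundant genes were left out of the depth, ppa006857m moved to 3.05 for HJ3 minus HJ2 and 3.60 for YL2 minus HJ2. The copy ppa006839m moved to 0.29 for HJ2 minus HJ1, 2.06 for YL2 minus HJ2, -0.29 for ZH2 minus HJ2 and -2.36 for ZH2 minus YL2. The pseudocount sets by construction how far a level near 0 can lie from the others. Rescaling moved the median of all genes up by 0.16 for HJ2 minus HJ1 and HJ3 minus HJ2, 0.32 for HJ3 minus HJ1, 0.14 for YL2 minus HJ2, 0.13 for JX2 minus HJ2 and 0.20 for ZH2 minus HJ2.

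Replicate numbers did not pair the libraries: deviations of same-numbered libraries correlated between -0.0667 and 0.0499 over 15 pairs of groups. The number of genes with an r of at least 0.95 with ppa006857m, 3 as reported, was 15 over group means, 5 after rescaling, 6 by Spearman's rho, 2 with a pseudocount of 0.1 and 3 with the filter of the differences. For ppa006839m it was 12 over group means and 0 under the other settings. The tests of gene lists were not run, since no identifier could be tied to a product. Depth limits ppa006839m throughout, and ppa006857m in ZH2 and HJ1, where 6 and 2 reads carry its level.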
